A study of Sus scrofa with 41 samples.

Results

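The genes described here are C3 and 5 genes of the first complement component, namely C1QA, C1QB, C1QC, C1R and C1S. They were taken by their Ensembl symbols from the 25880 genes in the count table of each pig. C3 was chosen by its slope with the feed conversion ratio (FCR) in the Duroc pigs, so its values in that comparison are given as a description without a test. Of the 6 genes, 4 could be matched to a row. The symbol table pairs C1R and C1S with gene identifiers that have no row in the tables used, and both genes were not analysed here.

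Complement is a chain of serum proteins that tags microbes and cell debris for removal. In the classical pathway C1q, built of chains from C1QA, C1QB and C1QC, binds to antibodies or to damaged surfaces, and its attached proteases C1r and C1s then cleave C4 and C2. All pathways meet at C3, the most abundant complement protein of plasma, whose cleaved fragment C3b coats the target. Plasma C3 comes mainly from liver, but macrophages and other tissue cells also make it, while C1q is made mostly by macrophages and dendritic cells.

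C3 (ENSSSCG00000013551) lies on chromosome 2 of Sscrofa11.1, from 72431470 to 72471622 in the RefSeq gene table. The C1q genes are neighbours on chromosome 6 in the order C1QA (80586259 to 80589213), C1QC (80592591 to 80597464) and C1QB (80601680 to 80606076). C1R (63644097 to 63655149) and C1S (63670309 to 63681466) are placed beside each other on chromosome 5. These positions are whole gene spans, and the counts do not tell which exons the reads came from.

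PolyA RNA of psoas major, a loin muscle, was measured in 41 uncastrated male pigs, 13 of the Danbred Duroc and 28 of the Danbred Landrace breed, right after slaughter. The question was which genes follow feed efficiency, so no animal was treated and FCR was used over its whole range. The Duroc pigs had an FCR of 1.83 to 2.18, an age of 131 to 156 days and an RNA integrity number (RIN) of 7.0 to 8.8. The Landrace pigs had an FCR of 1.92 to 2.25, an age of 147 to 166 days and a RIN of 6.5 to 8.3. FCR values near these are feed eaten per weight gained, so a low value marks an efficient pig. The paper's introduction defines FCR in this way, but its methods state the inverse, gain over feed. The paper lists C3 as down in its Duroc analysis, the reverse of the sign found here on the labelled values. The FCR slopes here use the labelled values as they stand, and no fit on the inverse ratio was made. The labels also give a batch of 1 to 5, which the methods tie to the slaughter day. Batch 1 was a single Duroc pig, and batches 2, 3, 4 and 5 held 3, 2, 3 and 4 Duroc pigs and 12, 7, 2 and 7 Landrace pigs. Each pig gave 1 library, and pigs differed in breed, age, FCR and batch together.

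The counts on genes per pig ran from 22188911 to 25954816. ACTA1 and CKM, which define muscle fibres, were counted in every pig. The macrophage markers CSF1R and CD163 were also counted in every pig, while the neutrophil marker S100A8 was at 0 in 17 pigs. Levels below are counts relative to the TMM-scaled library size (CPM), which are not corrected for gene length, so levels were not compared between genes.

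C3 was very uneven between pigs. In the Duroc pigs it ran from 0.980 CPM over a median of 4.62 CPM to 16.7 CPM, with a mean of 5.81 ± 4.31 CPM (SD, n = 13). The Landrace pigs ran from 0.753 CPM over a median of 11.8 CPM to 98.5 CPM, with a mean of 17.95 ± 21.4 CPM (SD, n = 28). The breeds overlapped over nearly the whole Duroc range: 8 of the 28 Landrace pigs were above every Duroc pig, 1 was below every Duroc pig, and 1 of the 13 Duroc pigs was above the Landrace median. Behind these levels stood 15 to 2814 counts per pig. The highest levels came from the Landrace pigs numbered 3 (98.5 CPM, 2814 counts) and 15 (72.0 CPM, 2068 counts), both of batch 3. The lowest came from Landrace pig 21 (0.753 CPM, 15 counts) and Duroc pig 11 (0.980 CPM, 24 counts), both of batch 5. The same pigs were at the extremes of C1QA, where Landrace pigs 3 and 15 ranked 2 and 3 of 41 and Duroc pig 11 and Landrace pig 21 ranked 40 and 41.

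The spread of C3 between pigs stood out among all genes tested. Its biological coefficient of variation in the joint model, which is the spread that FCR, RIN, age, breed, batch and counting error leave over, was 0.823 against a median of 0.170 over 11146 genes. C3 ranked 24 from the top, and 99.8% of the genes tested varied less. The C1q genes were also in the upper range, at 0.456 for C1QA, 0.451 for C1QC and 0.405 for C1QB, above 96.6%, 96.5% and 94.3% of the genes tested.

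C1QA ran from 4.41 CPM over a median of 11.08 CPM to 18.3 CPM in the Duroc pigs, with a mean of 10.5 ± 4.28 CPM (SD, n = 13). Among the Landrace pigs it ran from 3.46 CPM over a median of 20.1 CPM to 40.2 CPM, with a mean of 20.6 ± 9.66 CPM (SD, n = 28). Of the Landrace pigs, 15 of 28 were above every Duroc pig, and none of the 13 Duroc pigs reached the Landrace median. C1QB had a mean of 16.7 ± 6.86 CPM (SD, n = 13) in the Duroc pigs, from 6.61 CPM over 16.9 CPM to 30.4 CPM, and of 33.4 ± 14.5 CPM (SD, n = 28) in the Landrace pigs, from 7.43 CPM over 31.1 CPM to 62.1 CPM. C1QC had a mean of 17.2 ± 7.39 CPM (SD, n = 13) in the Duroc pigs, from 6.08 CPM over 18.2 CPM to 29.0 CPM, and of 31.4 ± 14.4 CPM (SD, n = 28) in the Landrace pigs, from 6.52 CPM over 30.8 CPM to 56.6 CPM. For C1QB 15 and for C1QC 16 of the 28 Landrace pigs were above every Duroc pig. The low end of the Landrace pigs lay within or near the Duroc range for each of these genes.

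**Figure D1:**
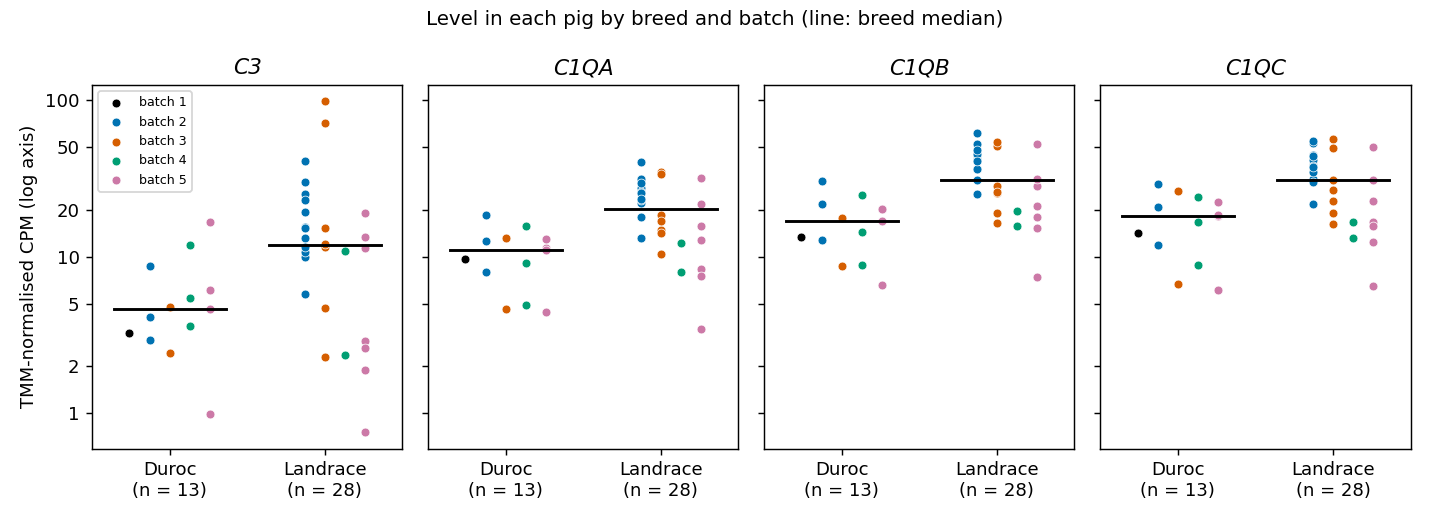
Level of C3, C1QA, C1QB and C1QC in each pig (vertical log axis, TMM-normalised CPM), by breed and coloured by batch, with a line at the breed median. The Landrace medians of 11.8, 20.1, 31.1 and 30.8 CPM are above the Duroc medians of 4.62, 11.08, 16.9 and 18.2 CPM, and the Landrace pigs of batch 2 lie mostly above those of batch 5.

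The breed comparison asks whether the breeds differ once FCR, RIN, age and batch are in the model. The only pig of batch 1, a Duroc, adds nothing to the breed, FCR, RIN or age terms of this model. In that model (edgeR, 41 pigs, 32 residual degrees of freedom) the fitted Landrace level was 1.62 times the Duroc level for C1QA, a log2 difference of 0.70 (SE 0.36, edgeR FDR 0.155). It was 1.61 times for C1QB (log2 0.69, SE 0.32, edgeR FDR 0.112), 1.45 times for C1QC (log2 0.54, SE 0.36, edgeR FDR 0.284) and 1.30 times for C3 (log2 0.38, SE 0.66, edgeR FDR 0.714). At the FDR threshold of 0.1 edgeR called none of the 4 genes, while it called 33.1% of the 11146 genes tested. At an unadjusted p under 0.05, which 37.2% of the genes tested had, edgeR had 1 of the 4, C1QB. DESeq2 called C1QB only (FDR 0.0758), with 34.6% of all its genes called. Limma called C1QB (FDR 0.0630) and C1QA (FDR 0.0933), with 32.9% of all genes called.

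The calls for C1QA and C1QB thus hung on the model. With breed as the only term, which called 19.8% of all genes, all 4 genes passed, with log2 differences of 1.63 for C3 (edgeR FDR 0.0157), 0.98 for C1QA (edgeR FDR 0.00441), 1.01 for C1QB (edgeR FDR 0.00153) and 0.87 for C1QC (edgeR FDR 0.0105). Without age in the model, which called 27.9% of all genes, C1QA (log2 0.77, edgeR FDR 0.0669) and C1QB (log2 0.81, edgeR FDR 0.0296) passed, and C3 was at a log2 value of 0.86 that did not pass. Single pigs also moved these values. Leaving out 1 pig moved the C3 difference to between 0.07, without Landrace pig 14 or Duroc pig 3, and 1.01, without Duroc pig 6, with 0.18 and 0.22 without Landrace pigs 20 and 27, and it passed in none of these fits. C1QA passed without Landrace pig 15 (edgeR FDR 0.0945) or 21 (edgeR FDR 0.0834). C1QB passed without Landrace pig 15 (edgeR FDR 0.0564), 18 (edgeR FDR 0.0882), 21 (edgeR FDR 0.0556), 24 (edgeR FDR 0.0969), 25 (edgeR FDR 0.0995) or 28 (edgeR FDR 0.0863), and without Duroc pig 6 (edgeR FDR 0.0725) or 7 (edgeR FDR 0.0848).

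The sizes differed between slaughter batches. In batch 2 the Landrace mean of log2(CPM + 1) was above the Duroc mean by 1.57 for C3, 0.96 for C1QA, 0.98 for C1QB and 0.95 for C1QC. In batch 3 it was above by 1.91, 1.15, 1.14 and 1.05 in the same order. In batch 4 the differences were -0.20, 0.13, 0.23 and -0.04, and in batch 5 they were -0.05, 0.33, 0.52 and 0.33. These raw differences were thus smaller in batches 4 and 5 than in batches 2 and 3, with 2 to 4 Duroc pigs in each. With the other terms in the model, batches 4 and 5 alone gave 0.57 for C1QA, 0.58 for C1QB, 0.28 for C1QC and 0.02 for C3, and batches 2 and 3 alone gave 1.14, 1.05, 1.05 and 1.28, in splits chosen after the values had been seen. Whether the breed difference itself differed between batches was not tested. In batch 2 the 12 Landrace pigs had C3 at 5.76 to 41.1 CPM and the 3 Duroc pigs at 2.93, 4.10 and 8.77 CPM, while in batch 5 the 7 Landrace pigs had 0.753 to 19.1 CPM and the 4 Duroc pigs 0.980, 4.62, 6.16 and 16.7 CPM.

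Macrophage markers were set beside these values because C1q is mostly made by macrophages. In bulk muscle, fewer cells of a type and less RNA per cell cannot be told apart. The summed level of the 8 macrophage markers ran from 16.5 CPM over a median of 41.9 CPM to 74.3 CPM in the Duroc pigs. It ran from 11.14 CPM over 46.1 CPM to 90.8 CPM in the Landrace pigs, so the ranges over all batches overlapped widely. CSF1R, the receptor of the macrophage growth factor, was the only marker of the 8 called for breed, against 33.1% of all genes, and it was lower in Landrace (log2 -0.92, edgeR FDR 0.0893). The other markers had log2 values of -0.56 for MRC1 to 0.53 for AIF1, none past the threshold. Taken relative to the marker sum of the same pig, C1QA was at a log2 value of -1.80 ± 0.29 (SD, n = 13) in the Duroc pigs and -1.20 ± 0.29 (SD, n = 28) in the Landrace pigs, and 18 of the 28 Landrace pigs were above every Duroc pig. The Landrace minus Duroc difference of this relative level was above 0 in each batch, at 0.33, 0.95, 0.71 and 0.74 for C1QA, 0.35, 0.94, 0.82 and 0.93 for C1QB and 0.32, 0.84, 0.54 and 0.74 for C1QC in batches 2, 3, 4 and 5. Set against each marker alone over all pigs, the difference was above 0 for 8 of 8 markers, from 0.31 to 0.88 for C1QA, from 0.39 to 0.96 for C1QB and from 0.27 to 0.84 for C1QC. In batch 4, with 3 Duroc and 2 Landrace pigs, it was above 0 for 5, 6 and 5 of the 8 markers. The level of C1QA itself differed by 0.96, 1.15, 0.13 and 0.33 in batches 2, 3, 4 and 5. The mean log2 marker sum was thus higher in Landrace in batches 2 and 3 and lower in batches 4 and 5. These relative levels were looked at after the values had been seen and carry no test, and the part of macrophage content in the breed differences was not tested.

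**Figure D2:**
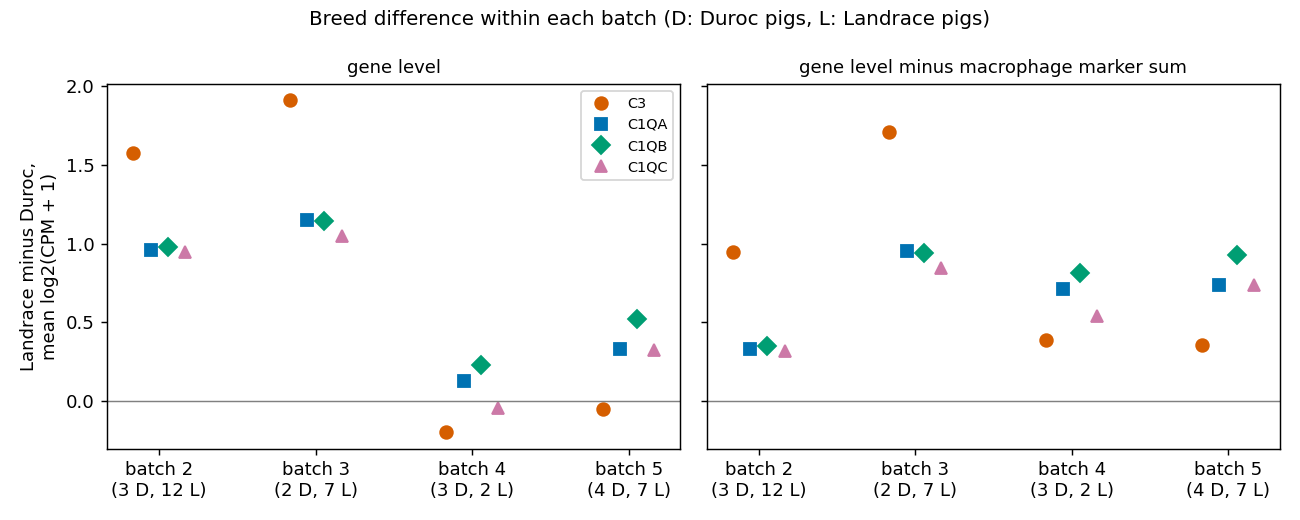
Landrace minus Duroc difference of the mean log2(CPM + 1) within batches 2 to 5 (vertical axis, log2), for the gene level (left) and for the gene level minus the log2 sum of 8 macrophage markers (right). On the left the C1q genes lie between 0.95 and 1.15 in batches 2 and 3 and between -0.04 and 0.52 in batches 4 and 5, and on the right they stay between 0.32 and 0.95 in all 4 batches.

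FCR was compared within each breed, with RIN, age and batch in the model, and slopes are given per 0.1 of FCR. In the Duroc pigs the fitted level of C3 was 1.96 times as high for each 0.1 of FCR, a log2 slope of 0.97 (SE 0.25, n = 13). This is the contrast that put C3 on the list, and no test of it is given. The Duroc pig with the lowest FCR, 1.83, had the lowest C3 level of the breed, 0.980 CPM, and the pig with the highest FCR, 2.18, had the highest, 16.7 CPM. Both were of batch 5, where the other Duroc pigs had 4.62 CPM at an FCR of 1.85 and 6.16 CPM at 2.11. Between them the order was loose. The 6 Duroc pigs with an FCR under the breed median of 1.94 had C3 at 0.980 to 11.8 CPM and a median of 3.85 CPM, and the 6 above it had 2.93 to 16.7 CPM and a median of 5.81 CPM. Over the 13 pigs Pearson's r of FCR and log2(CPM + 1) was 0.57, and without the pigs of lowest and highest FCR it was 0.08. The slope of the model without these pigs was 0.46 (SE 0.75, n = 11), and when each pig was left out in turn it was between 0.81 and 1.15. The Duroc model has 5 residual degrees of freedom, and the only pig of batch 1 adds nothing to its slopes.

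The C1q genes had smaller slopes of the same sign in the Duroc pigs, and these did not pass the test. The log2 slope per 0.1 of FCR was 0.38 for C1QA (SE 0.21), 0.37 for C1QB (SE 0.18) and 0.40 for C1QC (SE 0.24), each at an edgeR FDR of 0.786. Of the 10509 genes tested edgeR called 0%, with 564 (5.37%) at an unadjusted p under 0.05, and none of the C1q genes was among these. DESeq2 had 2 of the 3 C1q genes at an unadjusted p under 0.05, as 4.06% of its 11292 genes had, and called none of them, and limma had none at either threshold. With FCR as the only term the slopes were 0.11, 0.09 and 0.12 for C1QA, C1QB and C1QC, and with FCR and RIN they were 0.12, 0.11 and 0.13. Without the pigs of lowest and highest FCR the C1q slopes were below 0 but loosely set. They were -0.34 for C1QA (SE 0.54), -0.28 for C1QB (SE 0.44) and -0.73 for C1QC (SE 0.55, n = 11), which leaves room for either sign. Of the macrophage markers, all 8 had slopes above 0 in the Duroc pigs, from 0.11 for CD68 to 0.37 for MRC1. Their median was 0.33, against 0.02 for all genes. Of these markers 1 had an unadjusted p under 0.05, FCER1G, and none was called. Their part in the slope of C3 was not tested.

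In the Landrace pigs no change of C3 with FCR was detected. Its log2 slope per 0.1 of FCR was -0.05 (SE 0.39, edgeR p = 0.906, n = 28), which leaves room for a change of either sign. The highest levels, 98.5 and 72.0 CPM, were at FCR values of 2.06 and 2.12 near the middle of the range, and the lowest, 0.753 CPM, was at 2.10. The C1q slopes were -0.21 for C1QA (SE 0.17, edgeR p = 0.229), -0.23 for C1QB (SE 0.14, edgeR p = 0.112) and -0.23 for C1QC (SE 0.15, edgeR p = 0.1497), with FDR values of 0.956 to 0.981. Of the 8 macrophage markers 7 had slopes below 0 in this breed. The median of the 8 was -0.17, against -0.0002 for all genes, and the lowest value was -0.34. Of the 8 markers 3 had an unadjusted p under 0.05 and none was called. Their part in the C1q slopes was not tested. In this breed edgeR called 0% of 11020 genes, with 606 (5.5%) at an unadjusted p under 0.05 and none of the 4 genes among them. DESeq2 and limma also called none of the 4.

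**Figure D3:**
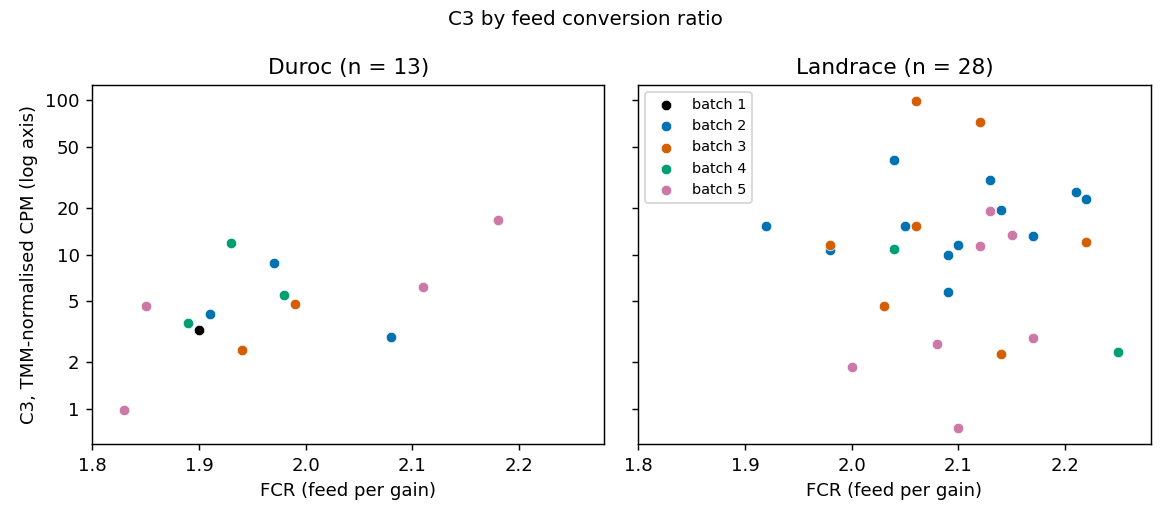
Level of C3 (vertical log axis, TMM-normalised CPM) by FCR (horizontal axis, feed per gain) in the 13 Duroc and 28 Landrace pigs, coloured by batch. The Duroc pigs at the ends of the FCR range, 1.83 and 2.18, hold the lowest and highest level of the breed, 0.980 and 16.7 CPM, and the Landrace levels show no order with FCR.

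The slopes of the breeds were set against each other by an FCR by breed term. It was -0.29 for C1QA (SE 0.27, edgeR p = 0.283), -0.28 for C1QB (SE 0.24, edgeR p = 0.254) and -0.32 for C1QC (SE 0.26, edgeR p = 0.231), and -0.49 for C3 (SE 0.51), which is given without a test. The C1q genes had an FDR of 0.938, so a difference between the breeds was not shown. Over both breeds together the log2 slope per 0.1 of FCR was 0.16 for C3 (SE 0.28), again a description, or 0.33 without age and 0.07 with limma. For the C1q genes it was -0.07 to -0.10, with edgeR FDR values of 0.815 to 0.892. In both of these fits edgeR called 0% of 11146 genes, with 582 (5.22%) at an unadjusted p under 0.05 for the FCR by breed term and 968 (8.68%) for FCR, and no C1q gene was among them. DESeq2 and limma called no C1q gene for FCR over both breeds.

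RIN was compared because RNA breakdown changes the counts of many genes. Of the 11146 genes, 51.8% were called for RIN by edgeR, but none of the 4 complement genes was, and none had an unadjusted p under 0.05 with edgeR (51.5% of all genes had), DESeq2 or limma. Per unit of RIN the log2 slope was 0.42 for C3 (SE 0.55, edgeR FDR 0.557), -0.08 for C1QA (SE 0.26, edgeR FDR 0.831), -0.20 for C1QB (SE 0.24, edgeR FDR 0.507) and -0.11 for C1QC (SE 0.26, edgeR FDR 0.758). With library size in place of TMM the C1q slopes were 0.26, 0.13 and 0.23, but the median of all genes went from -0.01 to 0.30 with it, so they stayed below that median, while C3 was above it at 0.75. Without the 2 pigs of RIN below 7 the slopes were 0.24 for C1QA, -0.010 for C1QB, 0.18 for C1QC and 1.00 for C3, none past the threshold. The Landrace pigs with the lowest RIN, 6.5 and 6.6, had C3 at 5.76 and 19.1 CPM and C1QA at 22.0 and 31.9 CPM, within the range of the other Landrace pigs.

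Age and batch were terms of the same model. The log2 slope per 10 days of age was 0.83 for C3 (SE 0.53, edgeR FDR 0.457) and between 0.11 and 0.18 for the C1q genes (edgeR FDR 0.763 to 0.883), so edgeR called none of the 4, against 1.76% of all genes. No gene of the 4 had an unadjusted p under 0.05 for age, which 16% of all genes had. The test over the 5 batches gave an edgeR FDR of 0.552 for C3, 0.289 for C1QA, 0.158 for C1QB and 0.261 for C1QC, where 24.1% of all genes were called, and again none of the 4 had an unadjusted p under 0.05, against 32.6% of all genes. DESeq2 and limma were not run for these terms. In the Landrace pigs the mean of C1QA was 25.9 ± 7.02 CPM in batch 2 (SD, n = 12), 20.5 ± 9.81 CPM in batch 3 (SD, n = 7) and 14.5 ± 9.76 CPM in batch 5 (SD, n = 7).

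**Figure D4:**
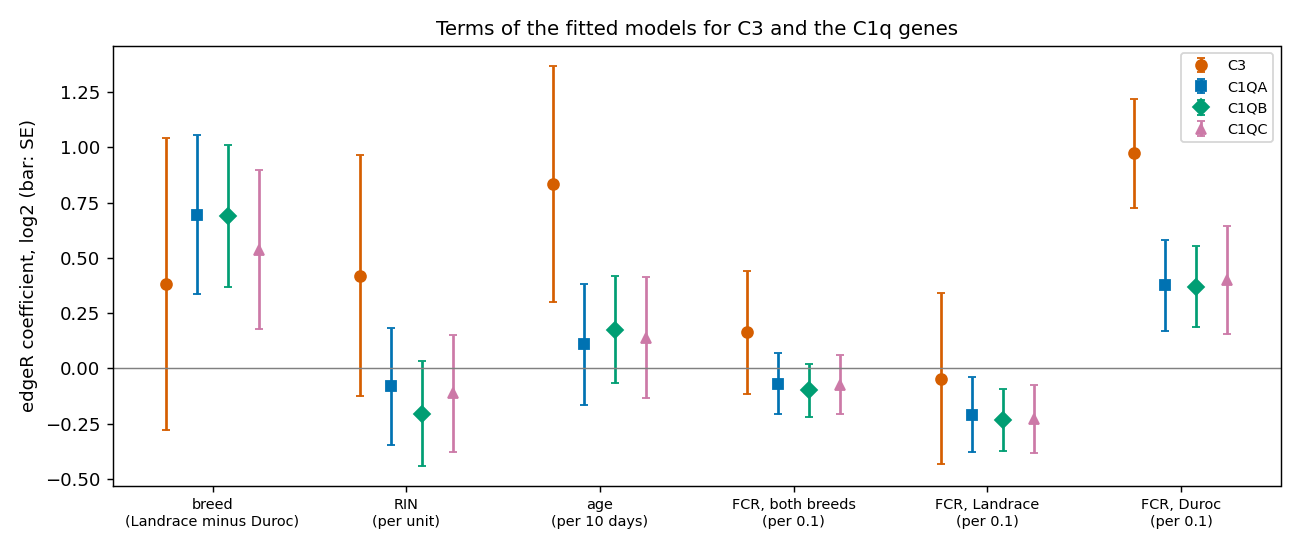
Fitted terms of the edgeR models for C3, C1QA, C1QB and C1QC (vertical axis, log2, bars are SE) for breed, RIN, age and FCR in both breeds, in Landrace and in Duroc. The C1q genes lie together in every term, from 0.54 to 0.70 for breed and from 0.37 to 0.40 for FCR in Duroc, and C3 has the widest bar in every term.

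The C1q genes followed each other closely from pig to pig. Over the 41 pigs Pearson's r of log2(CPM + 1) was 0.980 for C1QA and C1QB (Spearman's rho 0.975), 0.986 for C1QA and C1QC (rho 0.988) and 0.977 for C1QB and C1QC (rho 0.970). In a permutation test (100000 permutations, two-sided) each had p = 1e-05, the smallest it can give, and the Benjamini-Hochberg adjusted p over the 6 pairs was 1e-05 for r and 1.2e-05 for rho. Without the 2 pigs farthest from the median r was 0.970 to 0.984. The values were 0.954 to 0.979 within the Duroc pigs and 0.977 to 0.987 within the Landrace pigs, and at least 0.948 in each of batches 2, 3 and 5, while batches 1 and 4 held fewer than 6 pigs. The ratios between the chains' counts varied less than their levels. C1QC counts were 1.57 ± 0.165 times the C1QA counts (SD, n = 41), from 1.31 to 2.01. C1QB counts were 1.66 ± 0.213 times the C1QA counts (SD, n = 41), from 1.31 to 2.16. The C1QA level itself differed 11.6 times between the lowest and the highest pig. The ratio of C1QC to C1QA was 1.62 ± 0.182 in the Duroc pigs (SD, n = 13) and 1.55 ± 0.153 in the Landrace pigs (SD, n = 28).

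C3 moved with the C1q genes, but less tightly. Its r was 0.768 with C1QA (rho 0.731), 0.733 with C1QB (rho 0.701) and 0.7496 with C1QC (rho 0.711), each at p = 1e-05 for r in the same permutation test, with an adjusted p of 1e-05 and adjusted p values of 1.2e-05 to 3e-05 for rho. Without the 2 pigs farthest from the median of C3 r was 0.695 to 0.728. Within the Duroc pigs it was 0.526 to 0.603, within the Landrace pigs 0.705 to 0.764, and within batches 2, 3 and 5 it was 0.627 to 0.808. On the residuals of the joint model, from which FCR, RIN, age, breed and batch had been taken out, r was 0.718 to 0.757. The ratio of C3 to C1QA counts ran from 0.119 to 2.83 over the pigs, a far wider range than the ratios among the C1q chains.

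**Figure D5:**
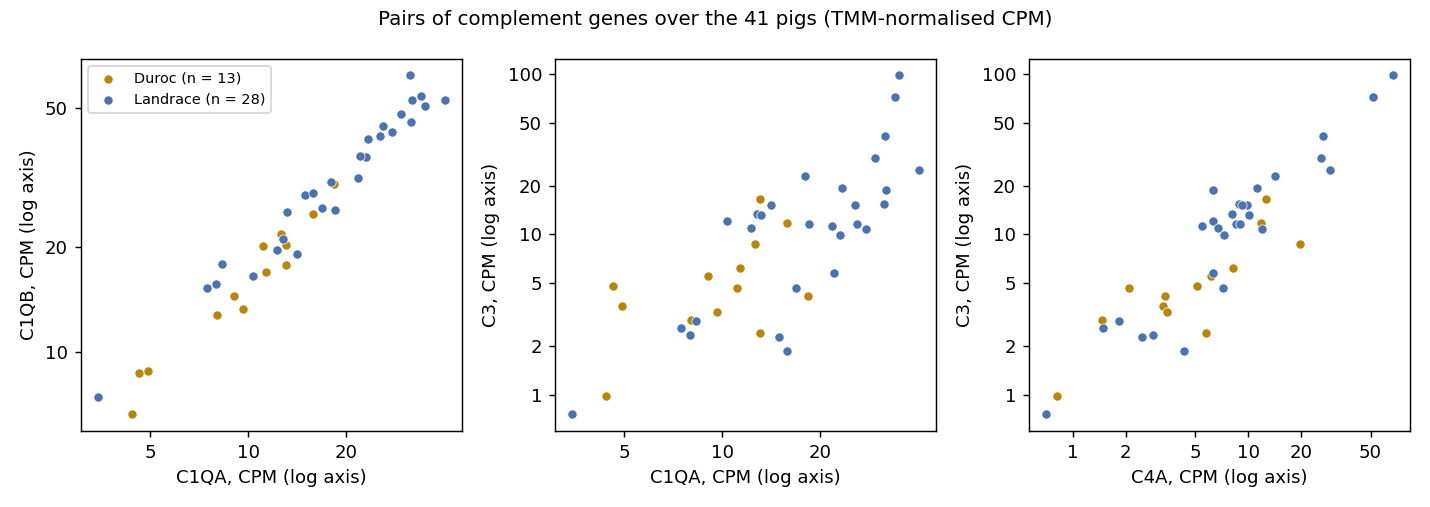
Level in each of the 41 pigs (log axes, TMM-normalised CPM) for C1QB by C1QA, C3 by C1QA and C3 by C4A, coloured by breed. C1QB by C1QA forms a narrow band (r = 0.980), C3 by C1QA a wide one (r = 0.768), and C3 by C4A (rho = 0.881) holds Landrace pigs 3 and 15 at the top of both axes.

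The genes most like C3 were sought among the other 11142 genes tested, by Spearman's rho over the 41 pigs, and are given as a description. C4A, which encodes the complement protein that C1s cleaves, came first with rho = 0.881 (0.819 in the Duroc and 0.872 in the Landrace pigs). Next were ENSSSCG00000006350 (0.80), CYFIP2 (0.766), DOCK2 (0.764) and HCLS1 (0.763). Over all pigs this order also holds the breed difference of C3. Within the Duroc pigs rho was 0.418, 0.462, 0.302 and 0.379 for these genes, and within the Landrace pigs 0.814, 0.7997, 0.744 and 0.734. Residuals of the joint model were compared only for the first 30 genes of this order and the listed genes. There C4A had a rho of 0.847, and LAPTM5 (0.810), ENSSSCG00000036618 (0.794) and FGD2 (0.763) stood above these 4 genes. DOCK2, an activator of Rac, and HCLS1, an actin-binding protein, are known from blood cells. C4A was the only gene with rho above 0.8 over the 41 pigs. C4A ran from 0.816 to 19.7 CPM in the Duroc pigs and from 0.702 to 67.3 CPM in the Landrace pigs, and Landrace pigs 3 and 15, highest in C3, were also highest in C4A with 67.3 and 51.6 CPM. Other complement genes high in this order were CFI, the protease that inactivates C3b (rho = 0.751, rank 11, with 0.225 in the Duroc and 0.836 in the Landrace pigs), C2, the protease of the classical C3 convertase (rho = 0.739, rank 14, with 0.407 and 0.760), and SERPING1, the inhibitor of C1r and C1s (rho = 0.720, rank 22, with 0.736 and 0.727).

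For the mean of the C1q genes the closest were ENSSSCG00000036618 (rho = 0.894), FCER1G (0.884), GIMAP6 (0.882), ENSSSCG00000006350 (0.879) and NCKAP1L (0.879). In that order rho was 0.879, 0.791, 0.659, 0.775 and 0.797 within the Duroc pigs. Within the Landrace pigs it was 0.906, 0.864, 0.878, 0.922 and 0.906. On residuals, compared for the first 30 and the listed genes, ENSSSCG00000006350 and C4BPA had 0.924, ENSSSCG00000036618 had 0.872 and GIMAP6 had 0.759. FCER1G, the signalling chain of Fc receptors, is on the macrophage list, and NCKAP1L is a blood cell part of the complex that builds branched actin. Over the 41 pigs 36 genes had rho above 0.8 with the C1q mean. Among them were C4BPA, a binding protein of C4b (0.878, rank 7), C2 (0.840, rank 17), the C3b receptor gene VSIG4 (0.811, rank 31) and ITGAM, a chain of complement receptor 3 (0.803, rank 34). With the macrophage marker sum Pearson's r over the 41 pigs was 0.875 for the C1q mean and 0.705 for C3. With the sums of the other lists r over all pigs was lower. For C3 it was 0.497 with lymphocytes, 0.480 with fibroblasts, 0.412 with adipocytes, 0.120 with endothelium and -0.219 with liver and acute phase genes. For the C1q mean over all pigs it was at most 0.431, with adipocytes. In the liver list ITIH4 had a median of 386 CPM and APOA1 of 5.67 CPM, so the sum was mostly ITIH4. Their rho with C3 was -0.236 and 0.297. In the adipocyte list FABP4 had a median of 27.1 CPM and the defining marker ADIPOQ of 1.77 CPM. Their rho with the C1q mean was 0.529 and 0.066, and with C3 it was 0.487 and 0.259. The order of the lists did not hold for C3 within the Duroc pigs. There r was 0.539 with adipocytes, 0.475 with neutrophils and 0.452 with macrophages. Nor did it hold in batch 3, where r was 0.748 with fibroblasts and 0.519 with macrophages. For C3 in the Landrace pigs r was 0.776 with macrophages and 0.701 with lymphocytes. No neutrophil gene was counted enough to be tested, and the neutrophil sum was only 0.148 to 1.36 CPM in the Duroc pigs. The r values with neutrophils thus rest on few counts. For the C1q mean r with macrophages was 0.909 in the Duroc and 0.939 in the Landrace pigs, and the next highest were 0.667 with neutrophils in the Duroc and 0.670 with lymphocytes in the Landrace pigs. In batch 5 it was 0.7998 with macrophages and 0.715 with neutrophils. All these pigs and genes share libraries, and pigs are the points throughout.

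The rest of the complement system was followed with a list of 46 further genes, of which 33 had a row and 16 were counted enough to be tested in the joint model. The terminal genes C5, C6, C7, C8A, C8B and C9, which form the pore in a target membrane, had at most 7, 2, 23, 3, 1 and 1 counts in any pig. CFB, the protease of the alternative pathway, had at most 29 counts and was not tested either. For breed edgeR called 4 of the 16 genes, and all 4 were lower in Landrace, against 17.5% of all genes lower and 15.6% higher. They were CD93, a receptor of endothelium and myeloid cells (log2 -1.63, edgeR FDR 1.07e-08), the chaperone and terminal pathway inhibitor CLU (log2 -1.28, edgeR FDR 4.63e-05), the lectin FCN2 (log2 -1.46, edgeR FDR 0.0115) and C8G (log2 -0.72, edgeR FDR 0.0547). The endothelial markers moved the same way, with 4 of 4 called lower in Landrace, and the summed level of that list had a median of 123 CPM in the Duroc and 85.6 CPM in the Landrace pigs. The part of endothelial content in CD93 was not tested. The median log2 breed difference of the 16 genes was -0.17, against 0.00 for all genes and 0.61 for the 4 genes C3, C1QA, C1QB and C1QC.

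For RIN edgeR called 4 of the 16 genes, 1 higher and 3 lower with rising RIN, against 23.9% and 27.9% of all genes. COLEC12, a scavenger receptor of the collectin family, rose by 0.80 per unit of RIN (edgeR FDR 0.00707). CFD, the factor D protease of the alternative pathway, had a slope of -0.62 (edgeR FDR 0.000374), C8G of -0.66 (edgeR FDR 0.0145) and CLU of -0.35 (edgeR FDR 0.0541). With library size in place of TMM 55.8% of all genes were called higher and 7.91% lower, and of the list 3 were higher and 1 was lower. COLEC12 and CFD were called with both scalings, C8G (log2 -0.35, edgeR FDR 0.192) and CLU (log2 -0.04, edgeR FDR 0.863) were not called with library size, and MASP1 (log2 0.41, edgeR FDR 0.0895) and C4BPA (log2 0.72, edgeR FDR 0.0298) were called only there. For age CD93 (log2 0.76 per 10 days) and CLU (log2 0.73) were called, both higher with age as 1.03% of all genes were, and 4 of the 16 were called for batch, CD93, CLU, ITGAM and ITGB2, a share near the 24.1% of all genes. No gene of the list was called by edgeR for FCR in either breed or in both. At an unadjusted p under 0.05 there were 2 of 15 tested in Landrace, CFP and ITGB2, against 5.5% of all genes, and 0 of 13 tested in Duroc, against 5.37%. In the Duroc pigs C4A had the largest slope of the list, 0.89 per 0.1 of FCR (SE 0.44, edgeR FDR 0.786). The median slope of the 13 tested genes was 0.24, against 0.02 for all genes. C4A followed C3 over these pigs (rho = 0.819), so its slope is not separate from the one by which C3 was chosen.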

How the data were processed

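The authors sequenced unstranded polyA libraries of psoas major muscle from 41 pigs on the BGISEQ-500, trimmed the read pairs with Trimmomatic 0.39 and mapped them with STAR 2.7.1a to Sscrofa11.1 with the Ensembl annotation of version 96. The deposited tables hold STAR's raw counts per gene. The unstranded column was used, so reads from overlapping or antisense genes cannot be told apart. Rows of unassigned reads, 19.1% to 30.1% of a pig's counts, were left out. Breed, FCR, RIN, age and batch came from the labels, and no pig was left out.

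Genes were filtered with filterByExpr and scaled by TMM and fitted with edgeR 4.0.16 in R 4.3.3 (quasi-likelihood, legacy form). The joint model held breed, batch (5 levels), FCR, age and RIN, and the model within a breed held the same without breed. FDR values are Benjamini-Hochberg values over all genes of a fit, with a threshold of 0.1, and SE was the coefficient over the root of its F value. DESeq2 1.42.0, limma 3.58.1 with voom, other scalings, filters, covariates and sets of pigs were alternatives. Correlations used log2(CPM + 1) and 100000 permutations in Python 3.11.15 with NumPy 2.4.6. The fits were tested on simulated counts.

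The genes and lists were chosen with earlier results of these data known. Named genes were the members, further complement genes past the FDR threshold for breed, RIN or FCR, and the 5 genes most like C3 and the C1q mean. CFI, C2, SERPING1, C4BPA, VSIG4, ITGAM, CFB, C4A, CFP, ITGB2, MASP1, LAPTM5, FGD2, ITIH4, APOA1, FABP4, ADIPOQ and the terminal genes were also named, as genes singled out after their values were seen.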

Additional observations from a re-analysis of the deposited data

How the results depend on the processing

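Of 232 values of the 4 genes under other settings, 205 kept their direction and also their side of the threshold or, for C3 slopes with FCR that have no test, moved by less than 1 SE. In most FCR fits hardly any gene was called, so there the side of the threshold was nearly fixed. For breed the share was lower, with 12 of 13 settings kept for C3, 9 of 13 for C1QA, 6 of 13 for C1QB and 12 of 13 for C1QC. For breed, beside the calls given above, C1QA passed with batch as a number (log2 0.77, just under the threshold) and with limma (log2 0.81). C1QB passed with DESeq2 (log2 0.69), with limma (log2 0.79), with batch as a number (log2 0.80), without RIN (log2 0.77) and in batches 2 and 3 alone (log2 1.05), a set chosen after seeing the data. With breed alone the log2 values were 1.63, 0.98, 1.01 and 0.87 for C3, C1QA, C1QB and C1QC, and without age they were 0.77 for C1QA, 0.81 for C1QB and 0.86 for C3. C3 was at 1.28 in batches 2 and 3 alone, 0.17 with library size in place of TMM and 0.22 without the 2 pigs of RIN below 7. In batches 4 and 5 alone, chosen in the same way, none of the 4 passed, at log2 values of 0.57 for C1QA, 0.58 for C1QB, 0.28 for C1QC and 0.02 for C3. The cause of these changes was not tested. For RIN the slopes of C1QA, C1QB and C1QC became 0.26, 0.13 and 0.23 with library size in place of TMM, and without the 2 pigs of RIN below 7 those of C1QA and C1QC became 0.24 and 0.18. The RIN slope of C3, 0.42, became 1.00 without these pigs, 0.87 with limma and 0.75 with library size. The FCR slope of C3 in Landrace became 0.010 with library size, 0.13 without age and 0.059 with FCR and RIN only. In Duroc the slope of C3 was 0.56 with FCR alone, where the C1q slopes were 0.09 to 0.12. With FCR and RIN C3 had 0.56 and the C1q genes 0.11 to 0.13. Without the pigs of lowest and highest FCR, a set chosen after seeing the data, C3 was at 0.46 (SE 0.75). There C1QA, C1QB and C1QC were at -0.34, -0.28 and -0.73 (SE 0.54, 0.44 and 0.55).

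With 1 pig left out, the breed difference was 0.07 to 1.01 for C3, 0.51 to 0.89 for C1QA, 0.50 to 0.88 for C1QB and 0.32 to 0.76 for C1QC. The RIN slope was 0.18 to 0.96, -0.20 to 0.18, -0.34 to 0.026 and -0.24 to 0.16 in that order. The FCR slope was -0.030 to 0.31, -0.14 to -0.01, -0.18 to -0.05 and -0.16 to -0.02 over both breeds, -0.20 to 0.12, -0.31 to -0.14, -0.28 to -0.17 and -0.30 to -0.17 in Landrace, and 0.81 to 1.15, 0.03 to 0.52, 0.02 to 0.51 and -0.058 to 0.58 in Duroc.

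Over all genes, 3692 were called for breed, 2209 with breed alone, 1220 in batches 2 and 3 and 410 in batches 4 and 5. Library size in place of TMM moved the share of higher calls from 47.0% to 12.9% for breed and from 46.2% to 87.6% for RIN, and the median log2 value to -0.18 and 0.30. For FCR, where edgeR called 0 genes, DESeq2 called 5 over both breeds, 4 in Landrace and 10 in Duroc. In Landrace edgeR called 3 without a filter, 1 without age and 1 with batch as a number. With 1 pig left out the counts were 3075 to 3873 for breed, 4997 to 5896 for RIN and 0 to 1 for each FCR fit. No paired analysis was possible because the pigs' numbers only name them and no pig has a partner in the other breed. Depth limits C3 most, at 15 counts in the lowest pig, and breed, FCR and age are only partly told apart by the model, since mean FCR was 1.97 in Duroc and 2.10 in Landrace and mean age 147 and 155 days.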

Other observations

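C3 relative to the macrophage marker sum was at a log2 value of -2.67 ± 0.80 (SD, n = 13) in the Duroc and -1.86 ± 0.93 (SD, n = 28) in the Landrace pigs. The Landrace minus Duroc difference was 0.94, 1.71, 0.39 and 0.36 in batches 2, 3, 4 and 5, and 7 of the 28 Landrace pigs were above every Duroc pig. Set against each of the 8 markers alone, it was above 0 for 8 in batches 2 and 3 but for 5 in batches 4 and 5, with lowest values of -0.56 and -0.19. In batch 3 the Duroc pigs spread by 1.86 and the Landrace pigs by 1.35 (SD, n = 2 and n = 7). This value was chosen after the data had been seen and was not tested.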
